A study of Mus musculus with 15 samples.

Results

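The sodium pump was followed through 8 of its genes in cultured bone marrow mesenchymal stromal cells (MSCs) with and without the taurine transporter TauT. They are Fxyd1, Fxyd2, Fxyd5, Fxyd6 and Fxyd7, which encode small regulators of the pump, and Atp1b1, Atp1b2 and Atp1b3, which encode its beta subunits. The 8 symbols were taken from the 56832 genes of the count table because Fxyd2 showed the largest clean rise in TauT-/- MSCs. Its rise was the largest among edgeR-called genes with a mean of at least 1 CPM whose genotypes did not overlap. The members were thus chosen by the difference between the genotypes in these 15 libraries, which for them is given as a description, with no p-value. Where edgeR calls of members or standard errors of their genotype difference are given, they only describe that choice.

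The study asked how MSCs depend on TauT, the sodium- and chloride-dependent taurine transporter encoded by Slc6a6. Bulk RNA-sequencing was carried out on MSCs from 16 week old mice of C57BL/6J background, 4 TauT+/+ and 4 TauT-/- libraries labelled male and 3 TauT+/+ and 4 TauT-/- libraries labelled female. The knockout was global, so the mice lacked TauT in every tissue and not in MSCs alone. By the study's methods, marrow of femurs and tibias was grown on collagen at low oxygen until confluent, then depleted of CD45+, Ter119+ and CD31+ cells with magnetic beads or by flow sorting. No treatment is given for any library. No source used here says that the libraries came from separate animals, so p-values measure only the spread between these libraries. Means are given ± SD over 7 TauT+/+ and 8 TauT-/- libraries unless another n is stated, and levels are in CPM, the library counts scaled to 1000000 with TMM factors.

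The sodium pump, or Na,K-ATPase, exports sodium and imports potassium against their gradients at the cost of ATP. Its alpha subunit carries out the catalysis, its beta subunit is a glycoprotein that the complex needs to fold and to reach the plasma membrane, and a FXYD protein can associate with the complex and tune its affinity for ions. The sodium gradient that the pump maintains drives many transporters, TauT among them. Fxyd2, the gamma subunit, is best known from the kidney tubule.

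Fxyd2 lies on chromosome 9 of GRCm39 (chr9:45310967-45322004, plus strand), 3.51 kb after the end of Fxyd6 (chr9:45281302-45307457, plus strand). Fxyd5 (chr7:30732147-30741906), Fxyd7 (chr7:30741936-30750961) and Fxyd1 (chr7:30751092-30756677) lie side by side on the minus strand of chromosome 7. Atp1b1 (chr1:164264678-164285957), Atp1b2 (chr11:69487651-69496851) and Atp1b3 (chr9:96214674-96246814) are on the minus strands of chromosomes 1, 11 and 9. These positions are from GENCODE M39, a later annotation of the build to which the reads were mapped. In that annotation an antisense lncRNA that the count table does not list (chr9:45309934-45319515) overlaps Fxyd2 from its 5′ end to beyond exon 2. Another unlisted lncRNA overlaps Fxyd5 from the other strand. Nme7 and Gm32391 overlap the 3′ and 5′ ends of Atp1b1, also from the other strand. The counts were made by strand, but no source used here says that the library kit keeps strand. Reads of Fxyd2, Fxyd5 or Atp1b1 and of these partners may thus not be told apart. The microRNA gene Mir7050, without a count in any library, overlaps Fxyd5 on the same strand. An lncRNA that the count table does not list also overlaps Atp1b3, and another Fxyd6, on the same strand, where strand cannot separate the reads.

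The family is named for a short motif outside the membrane that every member shares. The coding stretch of that motif is shown for the 5 FXYD members because it shows how far the genes whose reads were counted differ where their proteins are most alike. Capitals mark the 5 codons of proline and the FXYD motif, and lower case marks 2 codons on each side, 5′ to 3′ in the canonical GENCODE M39 transcript.
Fxyd2: gagaatCCCTTCGAGTACGACtatgaa
Fxyd5: aacaacCCCTTCTACTACGATgatact
Fxyd6: aaggatCCTTTCTATTACGACtaccag
Fxyd1: ccggatCCATTCACCTACGATtaccac
Fxyd7: acagatCCTTTTTTCTATGACtatgcc
Of the 15 bases in capitals, Fxyd5 and Fxyd6 share 12 with Fxyd2, Fxyd1 shares 10 and Fxyd7 shares 9. In all 5 genes an intron follows the first 13 of these bases. In Fxyd2 the motif runs from the end of exon 2 (chr9:45319430-45319442) into exon 3 (chr9:45319598-45319599) and starts at codon 16 of a coding sequence of 64 codons with the stop. In Fxyd5 it starts at codon 134 of 178, in Fxyd1 at codon 28 of 92, in Fxyd6 at codon 27 of 97 and in Fxyd7 at codon 17 of 80. Fxyd5 thus has the longest stretch before the motif.

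Several properties of the libraries bear on the values. Male-labelled libraries held 69764291 to 101575071 counts and female-labelled libraries 12761107 to 20781070, so sex label and depth cannot be told apart, while each depth holds both genotypes. Slc6a6 itself was at 591 to 2590 CPM in TauT+/+ and 401 to 1520 CPM in TauT-/- libraries, and 3 of the 8 TauT-/- libraries lay below all TauT+/+ libraries. All names follow the labels. The sex-linked genes Xist and Ddx3y went against the label in 3 libraries, TauT+/+ male 1, TauT-/- male 1 and TauT+/+ female 3. Male 1 and female 1 of each genotype were near-identical, with a spread of log2 ratios of 0.102 (TauT-/-) and 0.114 (TauT+/+), against 0.261 for the next of the 105 pairs. Counting error alone would give 0.0589 and 0.0618. The labels list these as separate samples and all 15 were kept, but whether a pair comes from 1 culture was not tested. With 1 library of each pair left out, edgeR called 0 or 1 of the members in place of 3. Ptprc, which encodes the CD45 used for the depletion, was still at 27.9 to 179 CPM in TauT+/+ and 114 to 370 CPM in TauT-/- libraries.

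Fxyd2 was higher in every TauT-/- library than in any TauT+/+ library. In male-labelled TauT+/+ libraries 1 to 4 it had 1.82, 0.200, 2.84 and 2.26 CPM, and in female-labelled TauT+/+ libraries 1 to 3 it had 2.64, 1.07 and 6.72 CPM. In male-labelled TauT-/- libraries 1 to 4 it had 19.9, 32.7, 31.1 and 53.9 CPM, and in female-labelled ones 19.1, 50.6, 68.7 and 77.8 CPM. The lowest TauT-/- value was thus 2.84-fold above the highest TauT+/+ value, and both near-identical TauT-/- libraries were the lowest of their genotype. The mean levels were 2.51 ± 2.07 CPM and 44.2 ± 22.0 CPM, and the fitted difference was 4.12 on the log2 scale (standard error 0.54), or 17.4-fold. The gene rested on 14 to 4743 counts in a library. Among genes with a mean of at least 1 CPM, edgeR called 55 higher without overlap. Of these Fxyd2 stood first, followed by Lsr and Slco4a1 with log2 fold changes of 3.84 and 3.82. Among all 17204 tested genes Fxyd2 stood 6th by log2 fold change.

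Fxyd5, which encodes dysadherin, a FXYD protein known for weakening cell adhesion, was the most abundant FXYD gene in both genotypes. It ranged from 61.2 to 215 CPM (median 173) in TauT+/+ and from 223 to 535 CPM (median 355) in TauT-/- MSCs. The groups did not overlap, but the highest TauT+/+ and the lowest TauT-/- library were only 1.04-fold apart. The log2 fold change was 1.25 (standard error 0.27), or 2.38-fold, from a mean of 156 ± 53.5 CPM to one of 375 ± 121 CPM.

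Fxyd1, or phospholemman, the regulator of the pump in heart and skeletal muscle, had the opposite sign. It ranged from 2.05 to 20.6 CPM (median 8.46) in TauT+/+ and from 0.0114 to 7.44 CPM (median 3.63) in TauT-/- MSCs. The groups overlapped, with 4 of 7 TauT+/+ libraries above and 3 of 8 TauT-/- libraries below all libraries of the other genotype. The log2 fold change was -1.28 (standard error 0.74). In TauT-/- male 4 the gene had a single count.

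The remaining FXYD members were close to the limit of detection. Fxyd7, a regulator known from the brain, had 1 to 14 counts in a library, with medians of 0.10 CPM without and 0.124 CPM with the knockout. The genotypes overlapped, and the log2 fold change was 0.35 (standard error 0.36). Fxyd6, also known from the nervous system, had no count in 8 of the 15 libraries, which allows up to 0.0350 to 0.235 CPM in them (3 counts of the library's total, counting error only). Its highest value was 0.241 CPM, from 21 counts in TauT-/- male 2, and it was the 1 member that did not pass the filter on low counts. Fxyd6 lies next to Fxyd2 on the same strand, but its counts were too low to compare its levels with those of Fxyd2.

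**Figure D1:**
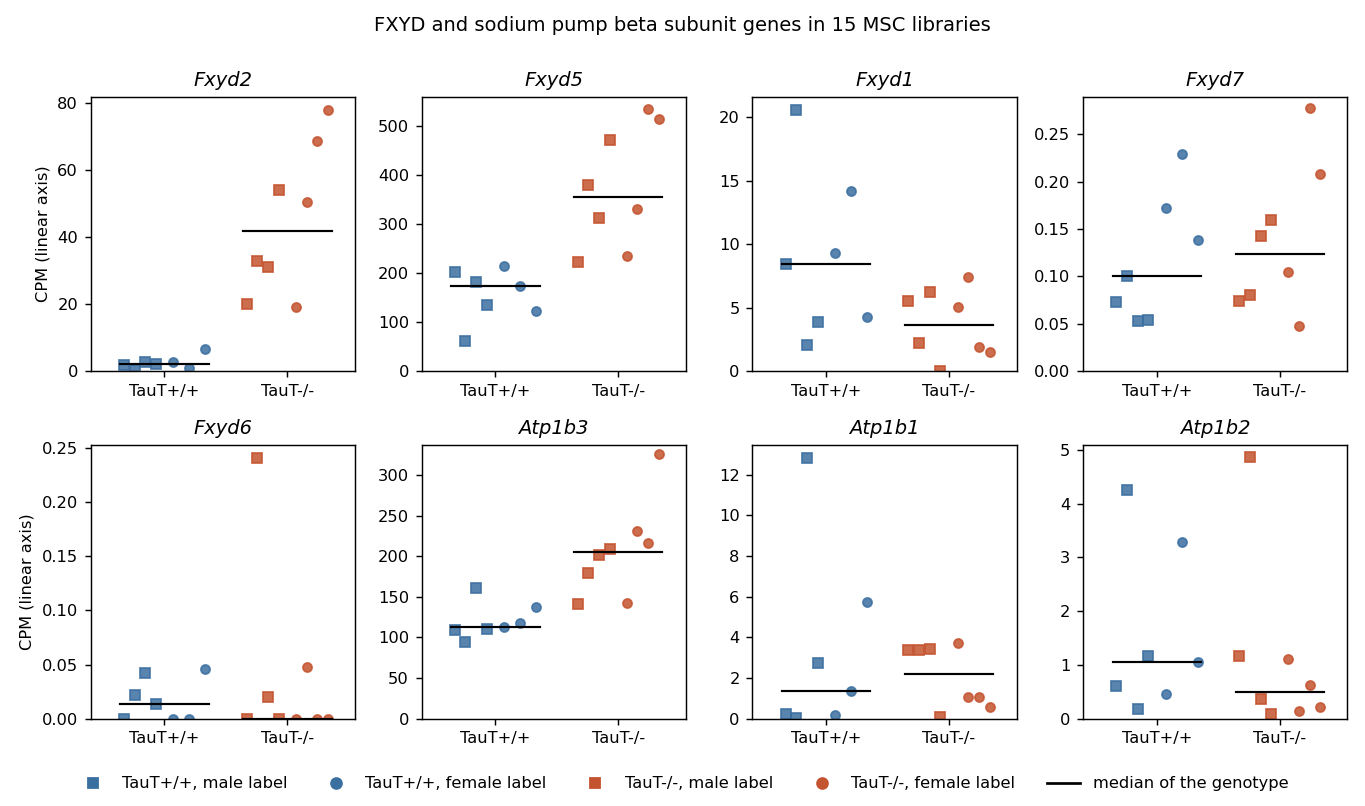
CPM (linear axis, from 0) of the 8 members in each of the 15 libraries, with squares for male and circles for female labels and a line at the median of each genotype. The TauT-/- libraries of Fxyd2 (19.1 to 77.8 CPM) and of Fxyd5 (223 to 535 CPM) lie above all TauT+/+ libraries, while the genotypes overlap in the other 6 genes.

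Of the beta subunit genes, Atp1b3 carried nearly all of the counts. It ranged from 93.8 to 161 CPM (median 113) in TauT+/+ and from 141 to 326 CPM (median 205) in TauT-/- MSCs, and 6 of 8 TauT-/- libraries were above all TauT+/+ libraries. The 2 that were not are the near-identical TauT-/- male 1 (141 CPM) and female 1 (142 CPM). The log2 fold change was 0.75 (standard error 0.17), or 1.68-fold, from a mean of 120 ± 22.2 CPM to one of 206 ± 58.7 CPM.

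Atp1b1, the beta subunit of most epithelia, varied far more between libraries than between genotypes. It ranged from 0.0445 to 12.8 CPM (median 1.38) in TauT+/+ and from 0.102 to 3.72 CPM (median 2.22) in TauT-/- MSCs, and the log2 fold change was -0.62 with a standard error of 0.97. The medians and the fold change thus point in opposite directions, and without TauT+/+ male 3, the highest library, the log2 fold change was 0.34. Atp1b2, known as an adhesion molecule on glia, ranged from 0.181 to 4.26 CPM (median 1.06) and from 0.0796 to 4.86 CPM (median 0.496), with -0.68 as its log2 fold change and 0.85 as the standard error.

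Over the 7 members that passed the filter, 4 were higher and 3 lower in TauT-/- MSCs. The median log2 fold change was 0.35, beside -0.02 over all genes tested. edgeR's quasi-likelihood test with Benjamini-Hochberg adjustment called 3 members (Fxyd2, Fxyd5 and Atp1b3), all higher, and the share over all genes called higher was 0.546%. The genotypes of 2 members did not overlap, both higher in TauT-/- MSCs, and the share over all tested genes of that kind was 0.692%, beside 0.436% without overlap and lower and 1.13% in either direction. Since these values chose the members, nothing is read from the counts.

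Because the near-identical libraries and those against their sex label take part in each value, the ranges were also taken without them. With all 5 of them left out, Fxyd2 ranged from 0.200 to 2.84 CPM in 4 TauT+/+ and from 31.1 to 77.8 CPM in 6 TauT-/- libraries. Fxyd5 then ranged from 61.2 to 182 CPM and from 312 to 535 CPM. Atp1b3 ranged from 93.8 to 161 CPM and from 179 to 326 CPM, so the genotypes of all 3 genes were apart. The share of all genes apart in these fewer libraries was not computed. With 1 library of each pair left out, or only the 3 against their label, Atp1b3 still overlapped. In each case 6 of 7 TauT-/- libraries were above all TauT+/+ libraries. Keeping only the female-labelled library of both near-identical pairs, the log2 fold changes of the 3 genes were 4.18, 1.42 and 0.79. Keeping only the male-labelled ones they were 4.23, 1.43 and 0.80, and without the 3 libraries against their sex label they were 4.68, 1.39 and 0.87.

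Levels can be compared between genes only per length, here as CPM per kb of the canonical transcript. In TauT+/+ MSCs the level was 133 ± 45.5 for Fxyd5, 59.7 ± 11.0 for Atp1b3, 11.1 ± 8.15 for Fxyd1 and 2.37 ± 1.96 for Fxyd2 (CPM per kb). Fxyd5 exceeded Atp1b3 in 7 of 7 libraries, while Fxyd1 exceeded Fxyd2 in 5 of 7 and their ranges overlapped. In TauT-/- MSCs the level was 319 ± 103 for Fxyd5, 102 ± 29.1 for Atp1b3, 41.7 ± 20.8 for Fxyd2 and 4.62 ± 3.29 for Fxyd1 (CPM per kb). Fxyd2 then exceeded Fxyd1 in 8 of 8 libraries without overlap, so the order of these neighbours was reversed. Atp1b1, Atp1b2, Fxyd7 and Fxyd6 had mean levels of 1.28 or less in both genotypes, and the ranges of Atp1b1 and Atp1b2 overlapped in both.

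As a share of the summed per-length level of the 7 FXYD genes, Fxyd2 made up 1.70% ± 1.74 (0.24% to 5.44%) in TauT+/+ and 10.9% ± 2.5 (8.0% to 14.3%) in TauT-/- libraries. Fxyd5 made up 88.9% ± 10.1 and 87.4% ± 2.31, and Fxyd1 9.29% ± 10.7 and 1.60% ± 1.31. Of the 4 beta genes, Atp1b3 made up 97.3% ± 1.89 and 98.7% ± 1.21. The summed FXYD level was 2.43 ± 0.804 of the summed beta level in TauT+/+ and 3.53 ± 0.730 of it in TauT-/- MSCs, with ranges of 1.62 to 3.51 and 2.94 to 4.83 that overlapped. These ratios depend on the length used: with all annotated exons in place of the canonical transcript, Atp1b3 had the highest mean per-length level of the 8 genes in TauT+/+ MSCs and Fxyd5 ranked 2nd.

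**Figure D2:**
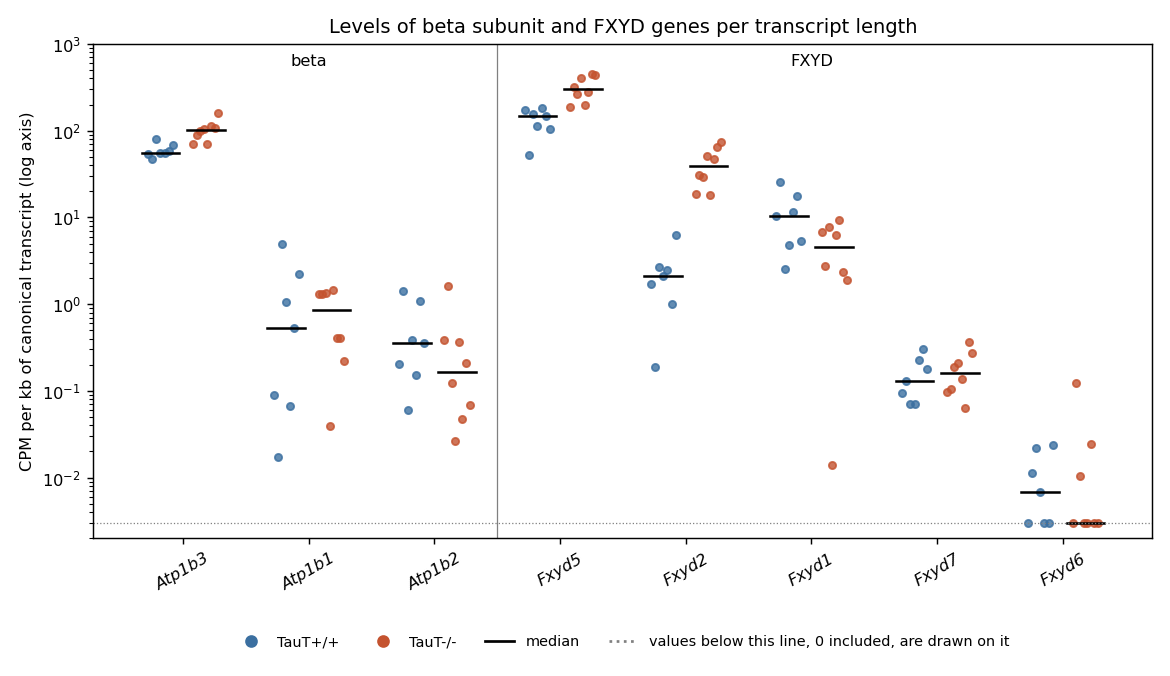
CPM per kb of canonical transcript (log axis) of the beta and FXYD members in each library, with a line at the median of each genotype. Fxyd2 lies below Fxyd1 in 5 of 7 TauT+/+ libraries and above it in all 8 TauT-/- libraries, and Atp1b3 and Fxyd5 are the most abundant gene of their class throughout.

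Among other genes of the pump, Atp1a4, Fxyd3, Fxyd4 and Atp1b4 were at most 0.178 CPM in any library and were not tested, and Atp1b4 had no count at all.

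The wider machinery of sodium and potassium transport was followed in 87 genes outside the rule, these 4 among them, of which 60 passed the filter. edgeR called 0 of the 60, beside 1.30% of all genes, and 13 had an unadjusted p under 0.05 (7 higher and 6 lower), beside 23.6% of all genes. DESeq2 called 3 higher and 4 lower, beside 12.1% of all genes. By list, 7 of 10 related ion ATPases were tested, as were 15 of 19 pump partners and kinases, 21 of 34 genes of sodium entry and cation transport, and 17 of 20 potassium channels. Their median log2 fold changes were 0.14, 0.00, -0.05 and 0.47. The most abundant genes of each list did not pass the test. The calcium pump of the endoplasmic reticulum Atp2a2 had a log2 fold change of 0.14 and the calcium pump of the plasma membrane Atp2b1 one of 0.68 (edgeR adjusted p = 0.496 and 0.132). The ubiquitin ligase Nedd4 and the kinase Wnk1, both regulators of ion transport, had -0.36 and -0.08 (adjusted p = 0.442 and 0.778). The potassium chloride cotransporters Slc12a4 and Slc12a7 had -0.05 and -0.06 (adjusted p = 0.798 and 0.883), and the potassium channels Kcnn4 and Kcnj15 had 0.72 and 0.51 (adjusted p = 0.125 and 0.737).

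The 7 genes that DESeq2 called were chosen here after their values were seen. The higher ones were the bicarbonate cotransporter Slc4a4 and the potassium leak channels Kcnk6 and Kcnk13, with edgeR log2 fold changes of 0.95, 0.88 and 1.04. The lower ones were the proton potassium pump Atp12a, the kinase Stk39, the channel Kcnj8 and the channel subunit Kcne4, with -2.83, -0.50, -3.76 and -2.79. Kcnk6 came closest with edgeR (adjusted p = 0.0561). Its mean level was 12.8 ± 4.52 CPM against 23.9 ± 6.74 CPM with the knockout, and 7 of 8 TauT-/- libraries were above all TauT+/+ libraries.

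The effect of genotype on the members was next compared between the sex labels, a contrast that the rule did not use. The difference of the log2 fold changes (female minus male label) was -0.34 for Fxyd2 (standard error 0.98, approximate 95% interval -2.26 to 1.59). It was -0.01 for Fxyd5 (-1.07 to 1.05) and 0.27 for Atp1b3 (-0.40 to 0.95). The largest in size was that of Atp1b2, -1.67 (-5.00 to 1.66), and the widest interval that of Atp1b1 (-4.31 to 4.32). edgeR called 0 of the 7 tested members, 0 had an unadjusted p under 0.05 and DESeq2 called 0, while over all genes 0.00% were called by edgeR and 242 genes (1.41%) had an unadjusted p under 0.05. The lowest p among the members was 0.255 (Fxyd7, edgeR adjusted p = 1.00). These intervals are wide, and for Fxyd2 they allow a difference of over 1 log2 unit in either direction.

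Between the sex labels themselves, whose depths differ, 0 of the 7 members were called by edgeR and 0 by DESeq2, beside 0.0233% of all genes. None had an unadjusted p under 0.05 (0 of 7), beside 5.45% of all genes. Fxyd2 was higher by a log2 value of 0.80 (standard error 0.47, edgeR adjusted p = 0.880) under the female label, and Fxyd7 by 0.82 (standard error 0.37, the same adjusted p). Fxyd5 and Atp1b3 differed by 0.23 and 0.20. Within the knockout, Fxyd2 averaged 34.4 ± 14.2 CPM under the male and 54.0 ± 25.9 CPM under the female label (SD, n = 4 each).

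**Figure D3:**
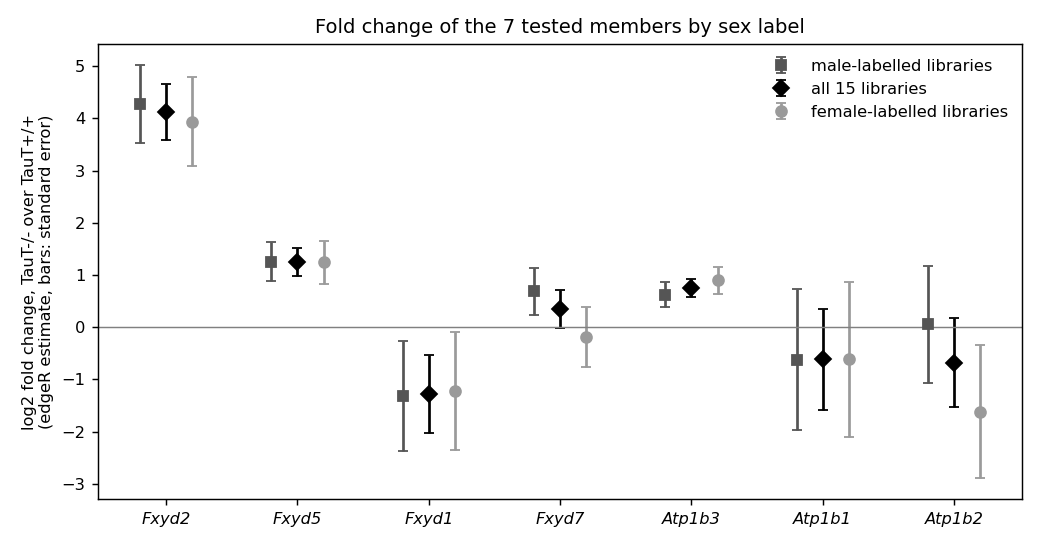
edgeR log2 fold change of the 7 tested members, TauT-/- over TauT+/+, in male-labelled libraries, in all 15 and in female-labelled libraries, with bars for the standard error. Fxyd2 (4.27, 4.12 and 3.94), Fxyd5 (1.25 in all 3) and Atp1b3 (0.62, 0.75 and 0.90) are above 0 under both labels, while the bars of Atp1b1 cross 0.

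Markers of cell types were also compared between the genotypes. In bulk RNA a change in the number of cells of a type and a change in RNA per cell cannot be told apart. Of 20 macrophage markers all were tested, 19 were higher in TauT-/- MSCs, and edgeR called 2, Cd68 and Ctss (log2 fold changes 1.46 and 2.07, adjusted p = 0.0445 and 0.0467), beside 1.30% of all genes. Unadjusted p was under 0.05 for 15 of the 20, all higher, and DESeq2 called 10 of them, beside 23.6% and 12.1% of all genes. The most abundant were the lysozyme gene Lyz2 and Mpeg1, with log2 fold changes of 0.97 and 1.43 (adjusted p = 0.167 and 0.0710). Their summed level was 1600 to 10846 CPM (median 9575) in TauT+/+ and 7877 to 27109 CPM (median 18776) in TauT-/- libraries, and 6 of 8 TauT-/- libraries were above all TauT+/+ libraries. The 2 that were not are again male 1 (7877 CPM) and female 1 (8627 CPM).

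Fxyd2, Fxyd5 and Atp1b3 were set beside this level. TauT+/+ male 2, with the lowest macrophage level (1600 CPM), also had the lowest Fxyd2, Fxyd5 and Atp1b3 of all libraries. TauT-/- female 4, with the highest macrophage level (27109 CPM), had the highest Fxyd2 and Atp1b3. Per 1000 CPM of macrophage markers, Fxyd2 was 0.120 to 0.620 CPM in TauT+/+ and 1.66 to 3.66 CPM in TauT-/- libraries, without overlap. Since Fxyd2 was chosen for a rise far larger than that of the macrophage sum, this ratio was likely to stay apart. The share of all genes apart on this scale was not computed, and the part of macrophages in the rise was not tested. TauT-/- male 1 and female 1, a near-identical pair, had macrophage levels within the TauT+/+ range and Fxyd2 at 19.9 and 19.1 CPM. Fxyd5 per 1000 CPM of macrophage markers was 11.4 to 38.3 CPM in TauT+/+ and 14.5 to 29.1 CPM in TauT-/- libraries. No TauT-/- library was above all TauT+/+ libraries. The value of 38.3 CPM was that of TauT+/+ male 2, with the lowest macrophage level, and the next TauT+/+ library was at 22.4 CPM. TauT-/- male 1, 2 and 4 and female 1 and 3 were above that, while male 3 and female 2 and 4 were not. With the mean log2 level of the macrophage list as a covariate, the log2 fold change was 2.87 for Fxyd2, 0.60 for Fxyd5, 0.43 for Atp1b3 and -0.50 for Fxyd1.

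**Figure D4:**
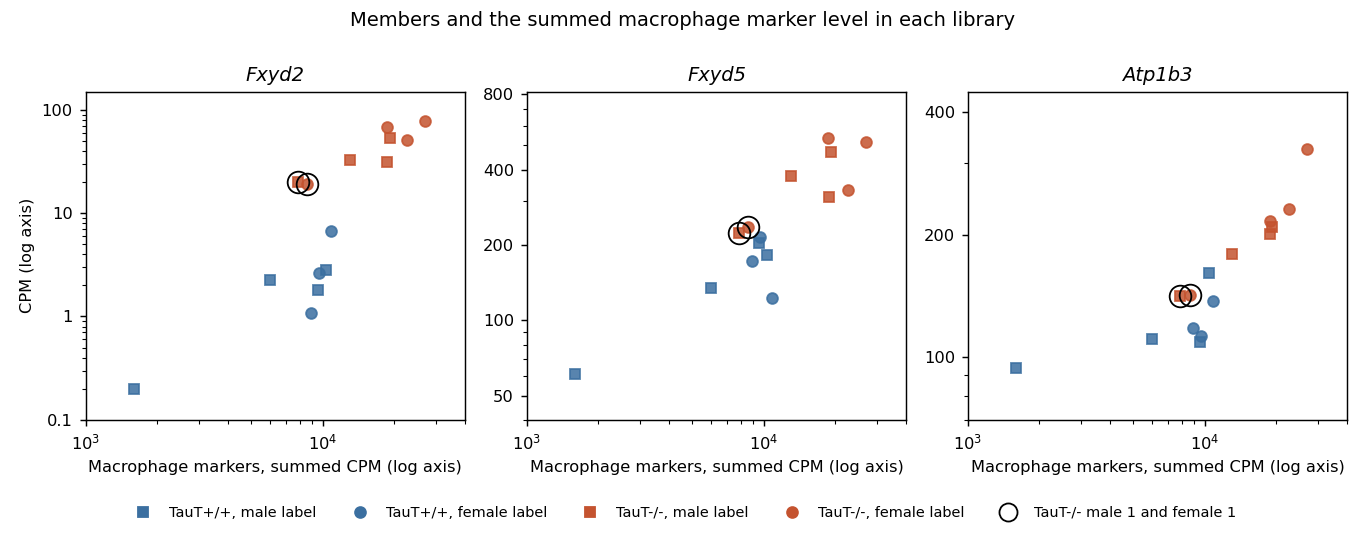
CPM of Fxyd2, Fxyd5 and Atp1b3 against the summed CPM of 20 macrophage markers in each library (both axes log). TauT-/- male 1 and female 1 are ringed. They are a near-identical pair, and whether they come from 1 culture was not tested. At the macrophage levels that both genotypes share, Fxyd2 of the ringed libraries (19.9 and 19.1 CPM) is above every TauT+/+ library (at most 6.72 CPM). Fxyd5 (223 and 236 CPM) lies just above the TauT+/+ libraries and Atp1b3 (141 and 142 CPM) among them. Fxyd2 was chosen for its rise in these libraries, and the part of macrophages in it was not tested.

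The other marker lists were measured in the same way, and edgeR called 0 of their genes. Unadjusted p was under 0.05 for 4 of 12 stromal, 2 of 6 endothelial, 2 of 6 neural and 1 of 4 muscle markers tested, beside 23.6% of all genes. DESeq2 called 3, 1, 2 and 0 of them, beside 12.1% of all genes. Those DESeq2 called, named here after their values were seen, were Vcam1, Pdgfra and Pdgfrb (edgeR log2 fold changes -1.90, -1.45 and -0.59), Kdr (2.14), Mbp (1.26) and S100b (-1.67). Mbp was higher in 8 of 8 TauT-/- libraries than in all TauT+/+ libraries (edgeR adjusted p = 0.0561). Of 12 marrow stromal markers 9 were lower in TauT-/- MSCs, among them Col1a1 and Cxcl12 (log2 fold changes -0.68 and -1.45, adjusted p = 0.328 and 0.407). The other 3, Nt5e, Cd44 and Itgb1, were higher (1.56, 0.77 and 0.16, edgeR adjusted p = 0.231, 0.190 and 0.573). Of the 4 stromal markers with an unadjusted p under 0.05, Cd44 was the 1 that was higher. The 12 stromal markers summed to 27501 to 47109 CPM in TauT+/+ and 5956 to 39754 CPM in TauT-/- libraries. Endothelial markers summed to 8.54 to 20.1 and 12.2 to 111 CPM, led by Vwf (log2 fold change 1.32, adjusted p = 0.178). In this sum 6 of 8 TauT-/- libraries were above all TauT+/+ libraries. Of the 6 tested, 4 were higher and 2 lower, the lower ones being Pecam1 (-0.19) and Egfl7 (-0.16), and Cdh5 was at 0.09. Red blood cell markers summed to at most 0.115 CPM. Schwann and neural markers, led by Tubb3 (log2 fold change -0.22, adjusted p = 0.876), summed to 39.3 to 223 and 40.4 to 196 CPM. Muscle markers, led by Des (-1.68, adjusted p = 0.257), summed to 12.2 to 215 and 5.91 to 175 CPM, with 2 of the 4 tested higher and 2 lower. The muscle marker with an unadjusted p under 0.05 was Tnnt3 (0.69, adjusted p = 0.211). The part of any of these lists in the members' differences was not tested.

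Since Fxyd2 is best known from the kidney tubule, a list of markers of the tubule and of epithelia in general was looked at in particular. Of 11 genes 2 were tested and edgeR called 0, beside 1.30% of all genes. Both had an unadjusted p under 0.05 and DESeq2 called 1, beside 23.6% and 12.1% of all genes. Umod and Cdh16, both specific to tubule cells, had no count in any library. Krt19 and Cdh1, the genes tested, had log2 fold changes of 1.59 and 2.65 (adjusted p = 0.172 and 0.0858). Both are markers of epithelia in general, so no marker specific to the tubule was tested. The list summed to 11.2 to 54.5 CPM in TauT+/+ and 7.92 to 136 CPM in TauT-/- libraries, and 4 of 8 TauT-/- libraries were above all TauT+/+ libraries.

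Around the members, within 100 kb, lie 53 other genes of the count table, and 27 of them were tested. Of these, 14 were higher and 13 lower with the knockout, and the median over them was 0.07 on the log2 scale. edgeR called 3 of the 27, all higher, beside 0.546% of all genes. Lsr, a lipoprotein receptor that is also a protein of tricellular junctions, lies 58.8 kb from Fxyd5 and rose from a mean of 0.480 ± 0.425 CPM to 6.80 ± 7.03 CPM (log2 fold change 3.84, standard error 0.69, adjusted p = 0.0293). TauT-/- male 2 had the highest value (22.2 CPM), and leaving it out gave a log2 fold change of 3.10. Leaving out 1 library gave an adjusted p of 0.0186 to 0.0796, above 0.05 without TauT+/+ male 2, TauT+/+ female 1, 2 or 3 or TauT-/- female 3. Cd68, the macrophage marker above, lies 58.2 kb from Atp1b2. Tnfsf13os, a transcript opposite Tnfsf13, lies 76.0 kb from Atp1b2 and rose by 1.30 on the log2 scale (standard error 0.29, adjusted p = 0.0439). None of the genes within that distance of Fxyd2 and Fxyd6 passed the filter, so no neighbour could be set beside Fxyd2.

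Across the 15 libraries, the genes most like Fxyd2 in log2(CPM + 0.5), among 13198 genes with a mean of at least 1 CPM, were Cdk9, Slco4a1, Ddx41, Napsa and B3gnt8. Pearson's r was 0.96, 0.95, 0.95, 0.95 and 0.93, given as a description, since these points share genotype, library and depth. In all 5 the genotypes did not overlap and the knockout was higher, beside 0.692% of all tested genes. Genes picked for their likeness to Fxyd2 are likely to part by genotype as Fxyd2 does, so nothing is read from this. Slco4a1, an organic anion transporter, had 2.45 ± 1.41 and 34.1 ± 16 CPM in the genotypes, and the protease gene Napsa had 1.04 ± 0.540 and 9.25 ± 5.09 CPM. The kinase gene Cdk9 had 63.1 ± 6.94 and 88.0 ± 7.32 CPM, so a likeness in pattern came with fold changes of very different size. With the mean of each of the 4 groups subtracted, r was 0.77 for Cdk9, which then ranked 233rd, and 0.63 for Slco4a1, 0.85 for Ddx41, 0.81 for Napsa and 0.85 for B3gnt8.

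The members' fold changes were recomputed under each processing alternative. That of Fxyd2 ranged from 2.87 with the macrophage list as covariate to 4.68 without the libraries against their sex label. That of Fxyd5 ranged from 0.60 to 1.43 and that of Atp1b3 from 0.43 to 0.92, and none of the 28 alternatives changed the sign of these 3 genes. The genotypes of Fxyd2 and Fxyd5 did not overlap in these libraries, so leaving out libraries could hardly change their sign, and nothing is read from it. Fxyd2 was called in 23 of the 28 alternatives, Fxyd5 in 9 and Atp1b3 in 8. With 1 library left out, they were called in 15, 4 and 2 of 15 fits. Fxyd1 was lower in all 27 alternatives in which it could be fitted (-1.60 to -0.50). The sign changed in 1 of 15 alternatives for Fxyd7, in 3 of 27 for Atp1b1 and in 2 of 27 for Atp1b2.

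**Figure D5:**
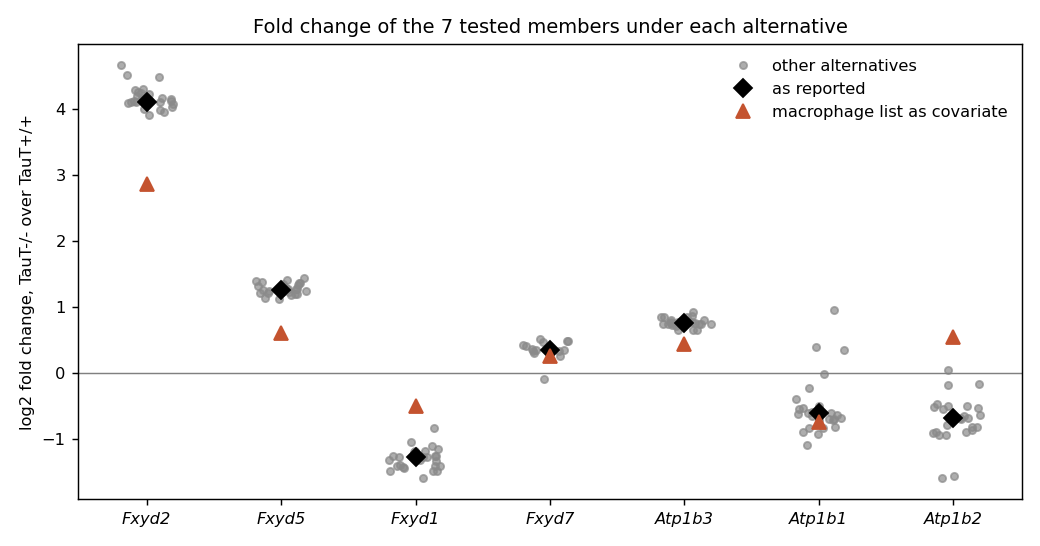
log2 fold change of the 7 tested members, TauT-/- over TauT+/+, as reported (diamonds), with the macrophage list as a covariate (triangles) and under every other alternative (grey points, leaving out each library among them). For Fxyd2 the triangle (2.87) lies below all other points (3.91 to 4.68), and the points of Atp1b1 and Atp1b2 lie on both sides of 0.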

How the data were processed

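The authors filtered the reads with fastp 0.23.1, mapped them with STAR 2.7.9a to GRCm39 with GENCODE M31 and counted them on genes by strand with featureCounts of Subread 2.0.1. The authors deposited the raw counts of every gene, with 1 column per library and 0 columns without a sample. The main test was the quasi-likelihood test of edgeR 4.0.16 under R 4.3.3, after TMM scaling and filterByExpr, with terms for genotype and for the sex label. Benjamini-Hochberg adjustment covered the 17204 genes past the filter, with a threshold of 0.05. Standard errors from edgeR are the size of the log2 fold change divided by the square root of the test's F statistic, so they restate that test. The difference between sex labels was fitted with 1 term per group. DESeq2 1.42.0, voom of limma 3.58.1, upper-quartile normalization, no filter, at least 10 counts in every library, no sex term, a replicate block, each sex label alone, a macrophage covariate and subsets of libraries were alternatives. The steps were tested on simulated data. Depth was 12761107 to 101575071 counts per library, and values from few counts are less precise.

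The members and gene lists were chosen with earlier results of these data known. Named genes are the members, other genes of the pump, the most abundant 2 and any edgeR-called genes of each ion transport list, called neighbours, the most abundant defining genes of each marker list, and the 5 genes most like Fxyd2. Other marker genes (Ptprc, Umod and Cdh16) were named for the gate and the tubule. DESeq2-called genes, Tnnt3 and the stromal markers Nt5e, Cd44 and Itgb1 were named after their values were seen. Positions and transcript lengths are from GENCODE M39, where 92.2% of the genes had a unique match by symbol. Protein sequences were not used here, and some genes of the pump and of the marker lists are not reported here.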

Additional observations from a re-analysis of the deposited data

Results flagged for a closer look

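Single libraries stood apart from the others of their group in 4 of 24 groups of 4 libraries tested over the 8 members. A rate of about 1 in 20 groups would give about 1.2. That rate does not hold for genes with mostly 0 counts, such as Fxyd6, so nothing is read from the number. Each share below is the distance to the closest other library divided by the range of the group. Atp1b1 was low in TauT-/- male 4 (0.102 CPM against 3.38 to 3.45 CPM in the other 3, share 0.978) and high in TauT-/- female 1 (3.72 CPM against 0.573 to 1.06 CPM, share 0.847). Fxyd6 was highest in TauT-/- male 2 (0.241 CPM, share 0.916) and in TauT-/- female 2 (0.0480 CPM, share 1), both on few counts. In TauT-/- female 2 it was 1 count with the other 3 libraries at 0, where the share cannot be other than 1. Neither Fxyd2, Fxyd5 nor Atp1b3 had such a library in the groups of 4. The 3 female-labelled TauT+/+ libraries were not checked in this way. In them Fxyd2 was at 2.64, 1.07 and 6.72 CPM.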

How the results depend on the processing

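The count of members called higher was 3 with all libraries. It was 1 without a filter on low counts and with the male-labelled library of each near-identical pair kept. It was 0 with the female-labelled library of each pair kept, in either sex label alone, without the libraries against their sex label and with the macrophage covariate. Leaving out 1 library gave 1 to 3, and 1 without TauT+/+ male 2 or 4 or female 1, 2 or 3, or TauT-/- male 1, 2, 3 or 4 or female 3 or 4. Of ion transport genes outside the rule, 0 were called. DESeq2 called 3 higher and 4 lower, voom 1 and 1, the filter of 10 counts in every library 1 higher, and the model without a sex term 1 lower. Leaving out 1 library gave 0 to 1 higher (1 without TauT+/+ male 1 or 3 or TauT-/- female 1) and 0 to 1 lower (1 without TauT+/+ male 3 or TauT-/- female 2). Of neighbouring genes 3 were called higher. The count was 1 without a filter, 0 in either sex label alone, with either library of the near-identical pairs kept, without the libraries against their label and with the macrophage covariate, and 0 to 4 leaving out 1 library (0 without TauT+/+ male 2, TauT+/+ female 1, 2 or 3 or TauT-/- female 3). Same-numbered libraries of the genotypes deviated together with a correlation of -0.03 to 0.64, over 0.1 and best with their own number in 5 of 7 pairs, all 4 male-labelled pairs among them. Since pairing was taken only where every pair was over 0.1, the reported values have no block. With the replicate block 2 members, 0 ion transport genes and 1 neighbouring gene (Lsr, edgeR adjusted p = 0.0427) were called. The causes were not tested. No alternative gave a call between the sex labels or for their difference among the members. The low counts of Fxyd6 and Fxyd7 limit what can be said of them.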
